A study of Mus musculus with 12 samples.

Results

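The subject is a set of 10 genes whose liver RNA differed between the samples titled M and F: Moxd1, Atp6v0d2, A1bg, Susd4, Selenbp2, Nudt7, Cyp2u1, Cyp2d9, Mup3 and Mup20. They were chosen by name, as genes that differ between the M and F titles and belong to no common family, and each was read by 1 probe set among the 18784 named genes and 21212 probe sets of the table. The male minus female differences therefore chose the genes, and they are given below as a description with no test. The rule did not name the strain difference, which was tested, but the genes were chosen with earlier results of these data known, and both differences use the same arrays.

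RNA came from the liver of 12 mice, with 1 Affymetrix whole-transcript array for each mouse and 3 mice in each of 4 groups. B6 F and B6 M are the females and males of C57BL/6J, a common laboratory strain, and KK F and KK M are those of KK/HIJ, an inbred strain that becomes obese and insulin resistant. No group carried a transgene or received an agent. All mice were 8 weeks old, ate chow, were housed alone for 3 days, and fasted 4 hours before the large lobe was taken. The labels name the second strain KK/HIJ in one field and KK/J in another.

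In rodents the liver is one of the most sexually dimorphic organs. Growth hormone is released in separated pulses in males and more steadily in females, and the liver reads this pattern through the growth hormone receptor, JAK2 and the transcription factor STAT5B. Together with BCL6, CUX2, HNF6 and other factors, this pathway keeps male-biased genes such as those of urinary proteins and steroid hydroxylases high in males, and other genes high in females. The products of the genes described here include secreted proteins, oxidative enzymes, a peroxisomal hydrolase, a proton pump subunit and a complement inhibitor.

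Values are log2 expression, so a difference of 1 is a doubling. For each gene the fit used 1 spread shared by the 4 groups. An SE or interval given for 1 sex therefore also carries the spread of the other sex. The arrays had medians of 5.9 to 6.03 and correlated within groups at 0.992 to 0.996. All 10 hepatocyte markers were measured, and their mean lay between 13.36 and 13.46 in every array. This is close to the highest value of any probe set, 13.92 to 14.02, so the mean had little room to rise. It was 13.36 to 13.40 in B6 F and 13.45 to 13.46 in KK F. In KK females 2 of the markers were called higher and 1 lower, against 3.18% and 3.31% of all probe sets. Xist lay between 10.29 and 10.95 in the arrays labelled female and between 4.21 and 4.7 in those labelled male. The 3 measured Y-linked genes, which females lack, read 3.79 to 4.66 in the female arrays, a rough gauge of what an absent transcript gives. Array KK F 3 stood apart on sex-dependent genes. Of 210 other probe sets called between the B6 sexes, it was the most male-like of the 3 KK females for 65.2%, against 32.5% of all probe sets. Its Xist value was 10.39. Over all probe sets its mean correlation with its own group, 0.9943, was the highest of the 3 KK females. Results that rest on this array are given with and without it. In a bulk sample, fewer cells of a type and less RNA per cell cannot be told apart.

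**Figure D1:**
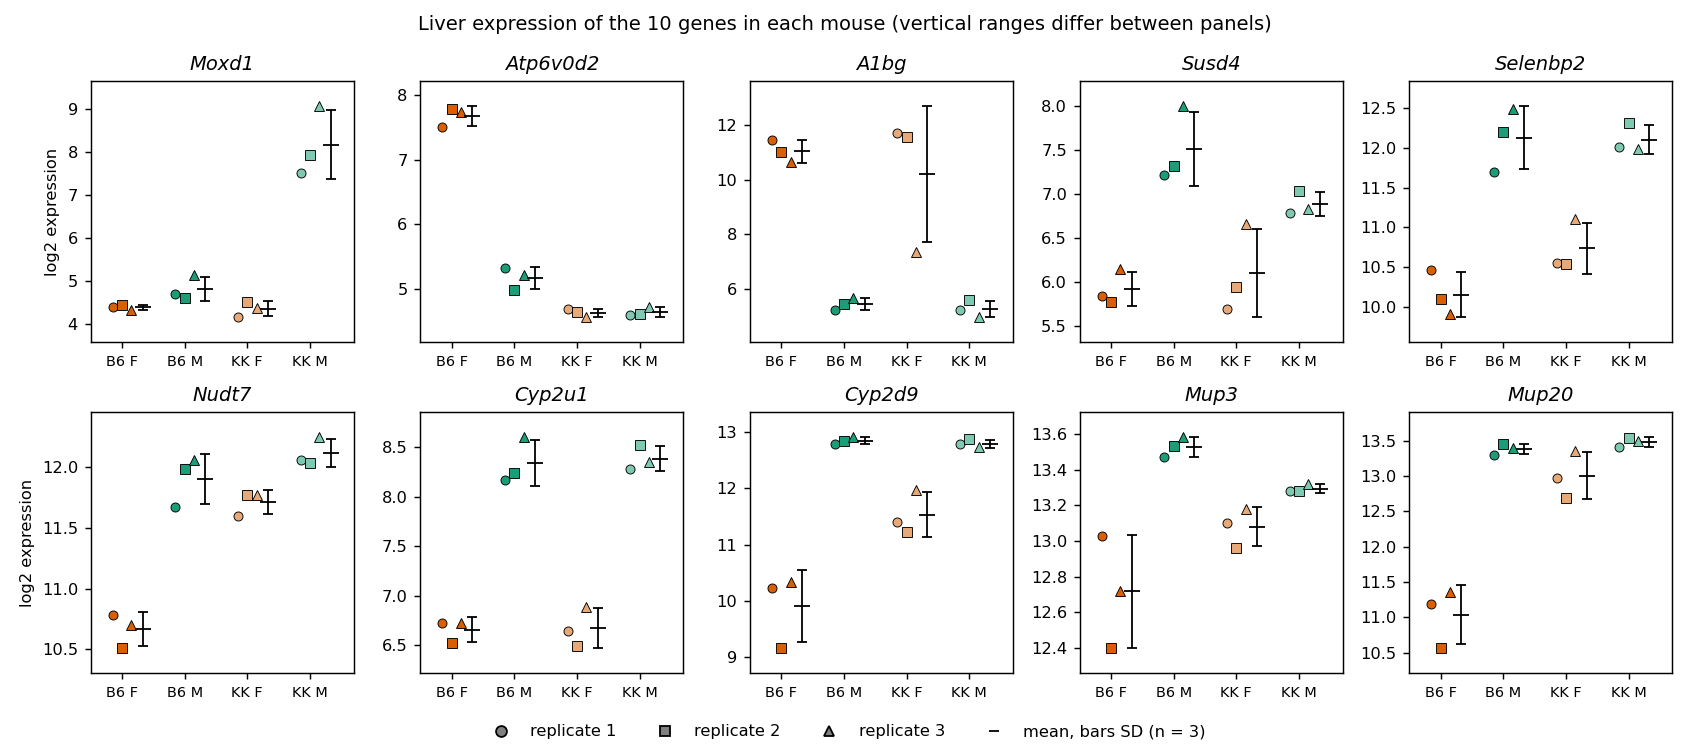
Log2 expression of the 10 genes (vertical axes, with a range of its own for each gene) in the 12 mice, grouped by strain and sex (horizontal axes); symbols mark the replicate number, and the bars are mean and SD of 3 mice. Moxd1 is high in KK M alone, at 7.52 to 9.06, Atp6v0d2 is highest in B6 F, at 7.50 to 7.78, and A1bg is near 11 in both female groups except for KK F 3 at 7.35.

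Of the 10 genes, 8 were higher in males and 2, A1bg and Atp6v0d2, higher in females. In B6 the male and female values of all 10 did not overlap, and in KK those of 9 did not. The same direction without overlap in both strains was found for 9 genes. Since the genes were chosen on this contrast, nothing is read from these counts. Over all probe sets such separation was found for 13.1% in B6, 18.6% in KK and 3.76% in both. Between the strains, 4 of the genes lay higher and 1 lower without overlap in KK females. In KK males 1 lay higher and 3 lower. Over all probe sets the share without overlap, in either direction, was 20.6% in females and 21.7% in males, and nothing is read from these counts either.

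Promoter sequences were taken from the RefSeq table of build GRCm38.p6, which is the C57BL/6J genome, and 7 of the 10 genes matched; Atp6v0d2, Cyp2u1 and Mup20 did not. The 250 bases before the start site were searched on both strands for the STAT-type palindrome TTCNNNGAA, the TATA box TATAAA, the HNF4 site CAAAGTCCA and the C/EBP palindrome TTGCGCAA, none of which contains another. Over all 32851 promoter windows of that length these stood in 7.02%, 12.4%, 0.384% and 0.164%. The palindrome TTCNNNGAA was found before Moxd1 and before A1bg, and TATAAA, on the minus strand, before Cyp2d9 and Selenbp2. The sequences before Moxd1, A1bg and Cyp2d9 are shown because Moxd1 was highest in KK males, A1bg was high in females, and Cyp2d9 was raised in KK females, and capitals mark the matches.
Moxd1, chr10:24223267-24223516, plus strand: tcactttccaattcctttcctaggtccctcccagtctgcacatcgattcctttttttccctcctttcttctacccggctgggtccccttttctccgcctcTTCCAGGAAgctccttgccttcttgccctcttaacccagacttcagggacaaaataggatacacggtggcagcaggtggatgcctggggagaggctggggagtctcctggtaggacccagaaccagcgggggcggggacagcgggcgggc
A1bg, chr15:60921271-60921520, minus strand: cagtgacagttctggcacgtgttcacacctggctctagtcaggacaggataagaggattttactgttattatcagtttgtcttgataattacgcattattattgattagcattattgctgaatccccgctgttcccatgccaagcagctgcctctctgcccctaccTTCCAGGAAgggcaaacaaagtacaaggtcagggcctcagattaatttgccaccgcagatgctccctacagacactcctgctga
Cyp2d9, chr15:82452127-82452376, plus strand: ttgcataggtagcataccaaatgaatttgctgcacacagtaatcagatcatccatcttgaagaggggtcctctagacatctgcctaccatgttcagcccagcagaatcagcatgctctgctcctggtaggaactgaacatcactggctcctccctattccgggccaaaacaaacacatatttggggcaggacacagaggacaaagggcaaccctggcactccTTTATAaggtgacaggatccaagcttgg
Moxd1 and A1bg, which differ between the sexes in opposite directions, held the palindrome in the same spelling, TTCCAGGAA. This spelling was taken from the Moxd1 match. It stood in 214 of the 2306 windows that held TTCNNNGAA, or 0.651% of all windows, and nothing is read from the shared spelling. The palindrome lay 150 to 142 bases before the start of Moxd1 and 84 to 76 bases before that of A1bg. A match of letters is a description, and the sequence of the KK strain was not examined.

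The secreted proteins come first. Mup20 encodes darcin, the urinary protein that serves as a male pheromone. It read 11.19, 10.57 and 11.36 in B6 F, 13.30, 13.45 and 13.40 in B6 M, 12.97, 12.69 and 13.35 in KK F, and 13.41, 13.54 and 13.50 in KK M. B6 females stood alone at the bottom. Of the KK females KK F 3 alone lay in the range of the B6 males, and the mean of the other KK females was 12.83. The mean male minus female difference was 2.35 in B6 (SE 0.19) and 0.48 in KK (SE 0.19). Mup20 rose in KK females against B6 females by 1.96 log2 (SE 0.19, 3.9-fold, adjusted p = 5.08e-05), while in males the strain difference was 0.10 (SE 0.19, adjusted p = 0.845). In 3 of 3 KK females it was above every B6 female. Over all probe sets, 20.6% did not overlap between the strains in females.

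Mup3 encodes another major urinary protein, and in the RefSeq gene order of chromosome 4 it lies beside Mup20 with 1 gene between them. Its values were 13.03, 12.40 and 12.72 in B6 F, 13.47, 13.53 and 13.58 in B6 M, 13.10, 12.96 and 13.18 in KK F, and 13.28, 13.28 and 13.32 in KK M. The groups ran from B6 F through KK F and KK M to B6 M, and of the neighbours in that order only the female groups overlapped. The strain difference was 0.36 in females (SE 0.13, adjusted p = 0.13) and -0.24 in males (SE 0.13, adjusted p = 0.379), and neither was called. Without B6 F 1 the female difference was 0.52 (adjusted p = 0.0136). These values are close to the highest of any probe set, 13.92 to 14.02 depending on the array, as are those of Mup20 in males, and whether this compressed the differences of either gene, the interaction of Mup20 given below included, was not tested.

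Of 19 other Mup genes listed, 2 had a probe set named by that symbol alone. Mup21 read 7.63, 6.63 and 7.32 in B6 F, 9.38, 9.51 and 9.80 in B6 M, 7.58, 7.27 and 7.86 in KK F, and 8.04, 8.00 and 8.58 in KK M. KK males thus lay between the female groups and the B6 males. Mup21 was higher in B6 males than in B6 females by 2.37 (SE 0.24, adjusted p = 2.48e-04), and it fell by 1.36 in KK males against B6 males (SE 0.24, adjusted p = 0.00595). The other, Mup5, was not called between the sexes (0.37 in B6, adjusted p = 0.214, and 0.41 in KK, adjusted p = 0.0794) or between the strains (-0.05 over both sexes, adjusted p = 0.819). Mup genes are similar in sequence, though not all to the same degree. Probes that read more than 1 of them were not examined, so each Mup value is uncertain as to the gene.

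A1bg, whose product is a secreted plasma glycoprotein of the immunoglobulin superfamily, was the strongest female-biased gene of the set. It read 11.48, 11.02 and 10.65 in B6 F and 5.21, 5.43 and 5.65 in B6 M. In KK F the values were 11.72, 11.58 and 7.35, and in KK M 5.24, 5.58 and 4.98. KK F 3 lay more than 4 log2 units below the other KK females, yet above every male. The male minus female difference was -5.62 in B6 and -4.95 in KK (SE 0.85 each). The KK difference minus the B6 difference was 0.67, and it was -0.76 without KK F 3. Neither was called, and which strain had the larger sex difference rests on that array. No strain difference of A1bg was called: it was -0.83 in females (SE 0.85, 95% interval -2.68 to 1.02, adjusted p = 0.759) and -0.16 in males (SE 0.85, 95% interval -2.02 to 1.69, adjusted p = 0.948). The male SE mostly carries the spread of KK F (SD 2.48), as the SD was 0.22 in B6 M and 0.31 in KK M. Without KK F 3 the female difference was 0.60 (adjusted p = 0.199), so its sign rests on that array, and the mean of the other KK females was 11.65. With array weights in limma, which gave KK F 3 more weight than the other KK females, the female difference was -2.06 (adjusted p = 0.167).

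The enzymes differed among themselves in how they met the strain. Cyp2d9 is a steroid hydroxylase of the male mouse liver that acts on testosterone. Its values were 10.23, 9.17 and 10.33 in B6 F, 12.79, 12.85 and 12.91 in B6 M, 11.41, 11.22 and 11.98 in KK F, and 12.79, 12.87 and 12.73 in KK M. KK females lay between B6 females and the males of both strains, with no overlap on either side. Cyp2d9 rose in KK females by 1.63 (SE 0.26, 3.09-fold, adjusted p = 0.00233) and differed by -0.06 in males (SE 0.26, 95% interval -0.62 to 0.50, adjusted p = 0.936). The male SE mostly carries the spread of the females. The SD was 0.64 in B6 F and 0.40 in KK F, against 0.06 in B6 M and 0.07 in KK M. The male minus female difference was 2.94 in B6 and 1.26 in KK.

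All 8 other Cyp2d genes listed were measured, and Cyp2d12 alone among them was called between the strains over both sexes. Over all probe sets 11.7% were called in that comparison, and 6.5% in females, so nothing is read from this count. Cyp2d12 rose in KK by 0.55 (SE 0.10, adjusted p = 0.00362), and in females by 0.76 (SE 0.14, adjusted p = 0.00736). It lay near the gauge of absent transcripts in B6 F, at 4.31 to 4.59. Cyp2d40 was higher in KK males than in KK females by 0.79 (SE 0.11, adjusted p = 0.00279). Without B6 F 2, 1 gene of this list was also called lower over both sexes. The Cyp2d genes share much of their sequence, so which of them a probe set reads is uncertain.

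Cyp2u1, which hydroxylates arachidonic acid and other long-chain fatty acids, kept the same sex pattern in either strain. It read 6.73, 6.52 and 6.73 in B6 F, 8.17, 8.24 and 8.60 in B6 M, 6.65, 6.49 and 6.89 in KK F, and 8.28, 8.52 and 8.35 in KK M. The values of each sex overlapped between strains, and the sexes lay well apart. The strain difference was 0.01 in females (SE 0.13, 95% interval -0.26 to 0.29, adjusted p = 0.988) and 0.05 in males (SE 0.13, 95% interval -0.23 to 0.32, adjusted p = 0.897). The male minus female difference was 1.68 in B6 and 1.71 in KK. Of 7 other single Cyp2 genes, 1 was called in KK females against B6 females, where 6.5% of all probe sets were. It was Cyp2f2, a P450 of liver and lung, at 0.23 (SE 0.05, adjusted p = 0.0245). This call was lost without any one of the 6 female arrays (adjusted p = 0.0522 to 0.082), after quantile normalization (0.0924) and in a fit of the female groups alone (0.097).

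Nudt7 encodes a peroxisomal Nudix hydrolase that breaks down coenzyme A and acyl-CoAs. The values were 10.78, 10.51 and 10.70 in B6 F, 11.67, 11.99 and 12.06 in B6 M, 11.60, 11.77 and 11.77 in KK F, and 12.06, 12.04 and 12.25 in KK M. As with Mup20, B6 females stood alone. KK F 2 and KK F 3 lay in the range of the B6 males, and KK F 1 just below it. Nudt7 rose in KK females by 1.05 (SE 0.11, 2.07-fold, adjusted p = 1.13e-04) and differed by 0.21 in males (SE 0.11, adjusted p = 0.391). Over both sexes it rose by 0.63 (SE 0.08, adjusted p = 2.09e-04).

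Of 20 other measured genes of Nudix hydrolases and of coenzyme A synthesis, 1 was called higher and 3 lower in KK over both sexes, where 5.42% of all probe sets were called higher and 6.31% lower. Their median was -0.10 against 0.01 for all probe sets. Nudt18 rose by 0.40 (adjusted p = 0.00275), while Nudt19, a second peroxisomal coenzyme A hydrolase, fell by 0.35 (adjusted p = 0.0116), and Pank1, a pantothenate kinase of coenzyme A synthesis, fell by 0.24 (adjusted p = 0.012). The third lower call, Nudt4, differed by -0.20 (adjusted p = 0.0491) and lost its call when any array but B6 F 2 was left out, at adjusted p-values of 0.057 to 0.113.

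Moxd1 encodes a copper-dependent monooxygenase related to dopamine beta-hydroxylase. It read 4.39, 4.45 and 4.33 in B6 F, 4.70, 4.61 and 5.14 in B6 M, 4.16, 4.51 and 4.38 in KK F, and 7.52, 7.93 and 9.06 in KK M. The 3 KK males were far above the other 9 mice, of which the females lay within the gauge of absent transcripts. Moxd1 rose in KK males against B6 males by 3.35 (SE 0.29, adjusted p = 2.84e-05), and in females the strain difference was -0.04 (SE 0.29, 95% interval -0.68 to 0.60, adjusted p = 0.983). The B6 males, at 4.61 to 5.14, lay close to that gauge, so this difference too could understate the change in RNA. The KK males also varied most among themselves, with an SD of 0.80. The shared spread carries this into the SE in females, where the SD was 0.06 in B6 F and 0.18 in KK F. Its promoter is the first of those printed above. Its 3 relatives Dbh, Moxd2 and Pam were measured, and limma called 0 of them between the strains over both sexes, with 0 at an unadjusted p under 0.05. Over all probe sets 11.7% were called, so 0 of 3 says little. Pam, which amidates peptides, came closest to a call between the sexes, at -0.58 in KK males against KK females (SE 0.14, adjusted p = 0.0592).

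The remaining genes have other roles. Selenbp2 encodes a cytosolic selenium-binding protein also known as the acetaminophen-binding protein of mouse liver. It read 10.46, 10.10 and 9.91 in B6 F, 11.70, 12.19 and 12.48 in B6 M, 10.56, 10.54 and 11.11 in KK F, and 12.01, 12.31 and 11.98 in KK M. KK females were above all B6 females without overlap, where 20.6% of all probe sets did not overlap in either direction. The difference of 0.58 (SE 0.21) was not called (adjusted p = 0.15), and in males it was -0.03 (SE 0.21, adjusted p = 0.969). Its close relative Selenbp1, a methanethiol oxidase, was not among the chosen genes and had a like sex pattern. Selenbp1 was higher in males by 0.87 in B6 (SE 0.13, adjusted p = 0.00372) and by 0.85 in KK (SE 0.13, adjusted p = 0.00432). The 2 genes are similar in sequence, and probes that read both were not examined.

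Susd4 encodes a membrane protein with sushi domains that inhibits complement activation. Its values were 5.84, 5.78 and 6.15 in B6 F, 7.22, 7.32 and 8.00 in B6 M, 5.70, 5.95 and 6.66 in KK F, and 6.79, 7.04 and 6.83 in KK M. KK males lay below every B6 male, and KK F 3 came close to the KK males. Over all probe sets, 21.7% did not overlap between the strains in males. The strain difference was -0.63 in males (SE 0.24, adjusted p = 0.188) and 0.18 in females (SE 0.24, adjusted p = 0.828). Without KK F 3 the female difference was -0.10 (adjusted p = 0.936). Of 10 measured complement regulators and sushi-domain genes, 1 was called higher and 2 lower in KK over both sexes. Over all probe sets 5.42% were called higher and 6.31% lower. Cd59a, an inhibitor of the membrane attack complex, had the smallest adjusted p and fell by 0.45 in KK (SE 0.07, adjusted p = 0.00138). The other calls of this list over both sexes were Cr1l at -0.35 (adjusted p = 0.0342) and Susd6 at 0.21 (adjusted p = 0.0487). Cr1l had an adjusted p of 0.0621 to 0.0819 without B6 F 1, B6 F 3, B6 M 1, B6 M 3, KK M 1 or KK M 2. Susd6 lost its call when any array but B6 M 1 and KK F 3 was left out, at adjusted p-values of 0.0561 to 0.11.

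Atp6v0d2 encodes the d2 subunit of the membrane sector of the vacuolar proton pump, best known from osteoclasts and macrophages. It read 7.50, 7.78 and 7.74 in B6 F, 5.32, 4.99 and 5.22 in B6 M, 4.69, 4.64 and 4.57 in KK F, and 4.60, 4.61 and 4.73 in KK M. B6 females stood far above all others, and KK mice of either sex lay close to the gauge of absent transcripts. Atp6v0d2 fell by 3.04 in KK females (SE 0.10, adjusted p = 2.14e-09) and fell by 0.53 in KK males (SE 0.10, adjusted p = 0.00624). Since the KK values lie about where absent transcripts read, these differences could understate the change in RNA, and no fold is given. Probes were designed on the reference genome, and the part of KK sequence differences in these values was not tested. The differences are therefore not lower bounds. The male minus female difference was -2.50 in B6 and 0.01 in KK. The mean of the 12 measured Kupffer cell and macrophage markers, of 13 listed, was 8.65 to 8.83 in B6 F, 8.13 to 8.75 in B6 M, 8.56 to 9.31 in KK F and 7.70 to 8.05 in KK M. Over both sexes 3 of them were called lower in KK, where 6.31% of all probe sets were. In females 1 was called higher and 1 lower, against 3.18% and 3.31% of all probe sets. In males 2 were called lower, against 3.06%. The range in KK F overlapped that in B6 F and was wider, while the range in KK M lay below that in B6 M. The part of macrophage content in the Atp6v0d2 values was not tested in either sex. The 7 osteoclast markers had a mean of 5.51 to 5.72 in all arrays.

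Of 23 other subunits and assembly factors of the proton pump measured, 4 were called lower and 1 higher in KK over both sexes, where 6.31% of all probe sets were called lower and 5.42% higher. Their median was -0.07 against 0.01 for all probe sets. The clearest was Atp6v1b2, a subunit of the catalytic sector, which fell by 0.67 (SE 0.06, adjusted p = 1.54e-05) and by about as much in females (-0.64) as in males (-0.69). Atp6v0e rose by 0.32 (adjusted p = 0.0124). The lower count was 2 without B6 F 2, B6 M 2, B6 M 3, KK F 2, KK M 1 or KK M 2. By limma none of the 23 was called between the sexes in B6 or in KK, where 1.03% and 2.17% of all probe sets were. At an unadjusted p under 0.05 there were 1 in B6 and 4 in KK, and nothing is read from the absence of calls.

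Among the 10 genes, the strain comparison over both sexes called 4 higher in KK (Mup20, Nudt7, Cyp2d9 and Moxd1) and 1 lower (Atp6v0d2), where 11.7% of all probe sets were called, 5.42% higher and 6.31% lower. In females 3 were called higher (Mup20, Cyp2d9 and Nudt7) and 1 lower (Atp6v0d2), against 6.5% of all probe sets, 3.18% higher and 3.31% lower. In males Moxd1 was called higher and Atp6v0d2 lower, against 5.15%, 2.08% higher and 3.06% lower. A choice made on the sex difference of B6 alone would also favour genes with extreme values in B6 females, which enter the female strain difference too. The counts therefore are not independent of the choice if it was made in 1 strain, and nothing is read from their excess.

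**Figure D2:**
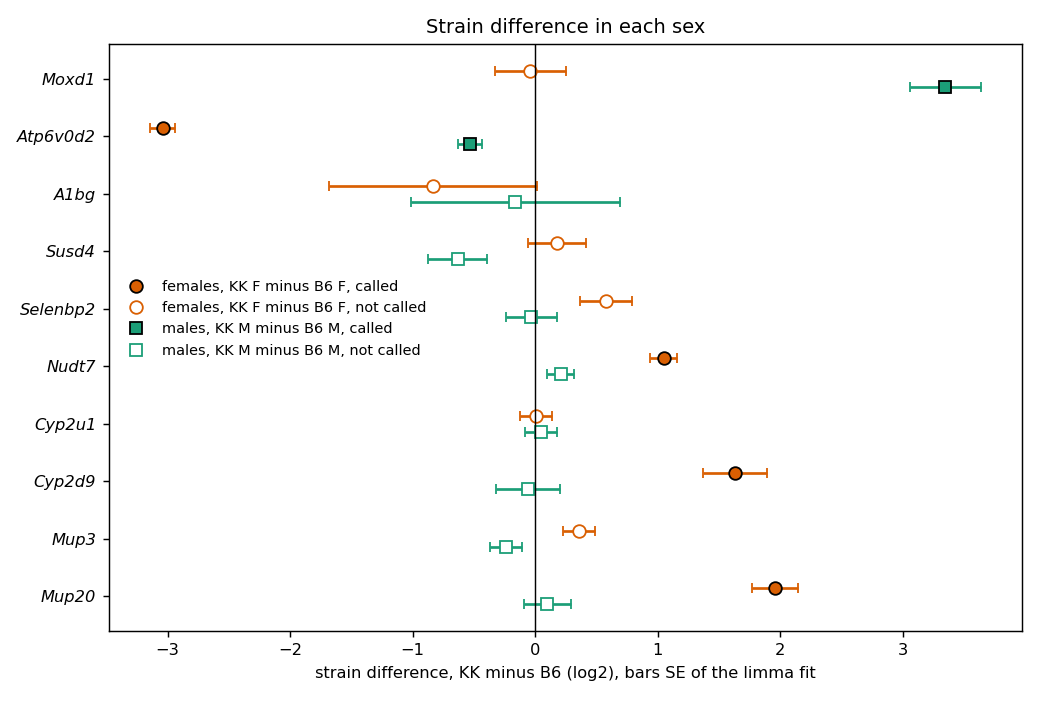
Strain difference, KK minus B6 in log2 (horizontal axis), of the 10 genes (vertical axis) in females (orange circles) and males (green squares); bars are SE of the limma fit, and filled symbols were called at an adjusted p under 0.05. In females Mup20, Cyp2d9 and Nudt7 lie at 1.96, 1.63 and 1.05 and Atp6v0d2 at -3.04, and in males Moxd1 lies at 3.35.

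Whether the strain difference itself differed between the sexes was tested as an interaction, in which the difference in females is subtracted from the difference in males. It was called for 3 of the 10 genes, 2 above and 1 below 0, against 0.141% of all probe sets, 0.066% above and 0.0754% below. Moxd1 gave 3.40 (SE 0.41, adjusted p = 0.00486), Atp6v0d2 2.51 (SE 0.14, adjusted p = 2.43e-06) and Mup20 -1.86 (SE 0.26, adjusted p = 0.0164). The interaction of Nudt7 was -0.84 (SE 0.16, adjusted p = 0.0872) and that of Cyp2d9 -1.68 (SE 0.36, adjusted p = 0.176), and neither was called. The Mup20 value was called by a narrow margin: its adjusted p was 0.051 to 0.0533 without B6 M 2, B6 M 3, KK M 1 or KK M 2. For Nudt7 the adjusted p was 0.025 without B6 M 1. The interaction equals the sex difference in KK minus that in B6, the values on which the genes were chosen. Most of it came from KK for Moxd1 (3.82, against 0.43 in B6), and from B6 for Atp6v0d2 (-2.50, against 0.01 in KK) and Mup20 (2.35, against 0.48 in KK). These p-values and the count of 3 are therefore not independent of the choice, and nothing is read from the excess over all probe sets.

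The scale of the B6 sex difference, with the B6 female mean at 0% and the B6 male mean at 100%, places each KK mouse for the 9 genes whose B6 difference was at least 0.5. The KK females share this scale's B6 females with the strain difference, so the percentages restate the values above and add no test. The KK female mean lay at 84.4% for Nudt7 and 83.7% for Mup20, at 55.3% for Cyp2d9 and 44.7% for Mup3, and at 29.5% for Selenbp2. It lay at 14.8% for A1bg, 11.4% for Susd4 and 0.9% for Cyp2u1. Atp6v0d2 was past the male end, at 121.8%.

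KK F 3 was the most male-like of the KK females for 8 of the 10 genes by the sign of the B6 difference. This array was also the most male-like for 65.2% of the 210 other probe sets called between the B6 sexes, so nothing is read from the 8. For A1bg it lay at 65.7%, where KK F 1 and KK F 2 lay at -11.9% and -9.4%. For Susd4 it lay at 46.2% against -14.0% and 1.9%, for Cyp2d9 at 70.4% against 51.0% and 44.5%, and for Mup20 at 98.4% against 82.1% and 70.5%. Macrophage markers in this mouse, with a mean of 8.56, were the lowest among KK females, and their part in these values was not tested. The KK male means lay between 98.0% and 116.5% of the scale for A1bg, Selenbp2, Nudt7, Cyp2u1, Cyp2d9 and Mup20, and at 60.5% for Susd4 and 70.8% for Mup3.

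**Figure D3:**
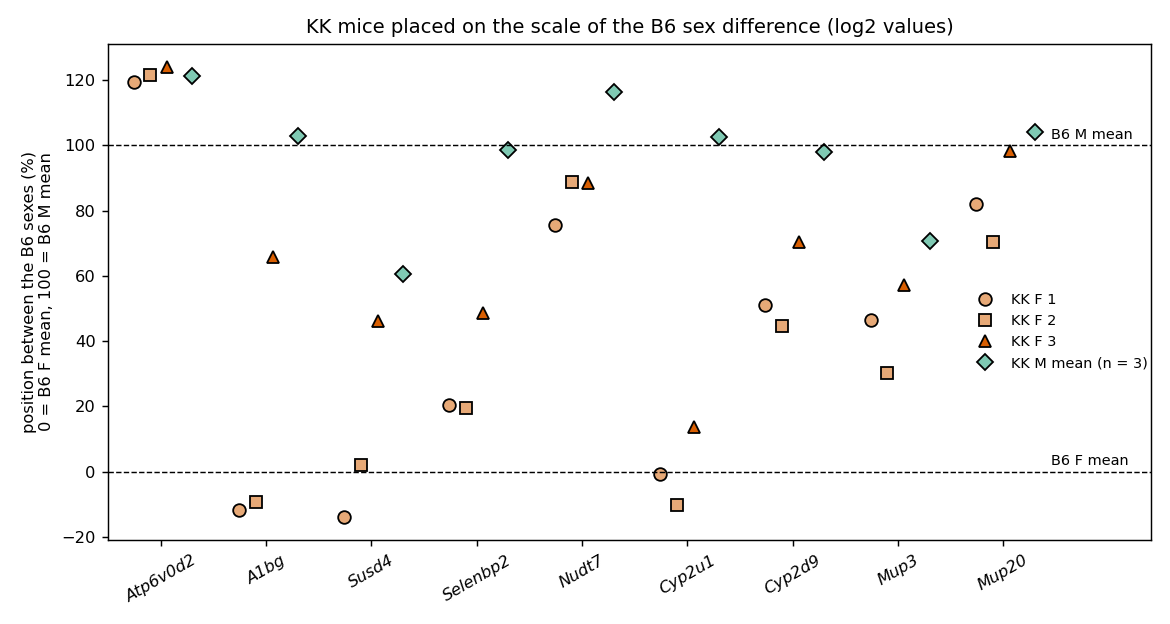
Position of each KK female (orange symbols, 1 per mouse) and of the KK male mean (green diamonds, n = 3) on the scale from the B6 female mean (0%) to the B6 male mean (100%), vertical axis, for 9 genes (horizontal axis); Moxd1 is left out because its B6 difference was 0.43. KK F 3 lies above both other KK females for 8 of the 9 genes plotted, all but Nudt7, and the gap is widest for A1bg, where it lies at 65.7%.

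The 10 genes fell into different patterns across the 12 mice. The 7 male-biased genes other than Moxd1 correlated with one another at Pearson r of 0.673 to 0.969 over 21 pairs, with Nudt7 and Mup20 the closest. Moxd1 correlated with those 7 at 0.321 to 0.662, A1bg at -0.939 to -0.744, and Atp6v0d2 at -0.938 to -0.453. All arrays share the same groups, so these values describe the group pattern and carry no p.

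The genes outside the set with the most similar pattern over the 12 mice were named by the same measure. For Nudt7 these were C6 (r = 0.989), a terminal complement component, Hsd3b5 (0.974), a steroid dehydrogenase of the male liver, and Arsa (0.97), the lysosomal arylsulfatase. For Mup20 they were Hsd3b5 (0.984), Arsa (0.981) and C6 (0.98), and for Cyp2d9 Arsa (0.985), Cyp7b1 (0.972), an oxysterol hydroxylase, and Hsd3b5 (0.965). These 3 genes had Hsd3b5 and Arsa in common among their nearest genes. They also correlated with one another at 0.934 to 0.969 over the same arrays, so shared nearest genes largely follow from that and add no finding. For Cyp2u1 the nearest were the Y-linked Eif2s3y (0.983) and Uty (0.981) and the lipid droplet gene Fitm1 (0.981).

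For A1bg the most similar genes were Cyp2b9 (0.973), a female-biased cytochrome P450, Slc22a26 (0.947) and the acyl-CoA thioesterase gene Acot3 (0.938). For Atp6v0d2 they were Cyp17a1 (0.976), a steroid hydroxylase, the mitochondrial isocitrate dehydrogenase gene Idh2 (0.974) and Ang (0.961). Cyp17a1 had means of 10.87 in B6 F, 7.09 in B6 M, 6.33 in KK F and 5.51 in KK M. For Selenbp2 they were Phyh (0.976), an enzyme of phytanic acid oxidation, Elovl3 (0.964) and Abcg2 (0.958), for Susd4 Fkbp11 (0.932), Rassf3 (0.929) and Elovl3 (0.919), and for Mup3 Ces3a (0.956), Hsd3b2 (0.953) and Ociad2 (0.933). For Moxd1 they were Chil6 (0.968), the citrate carrier gene Slc25a1 (0.936) and Olfr1474 (0.93). Slc25a1 ranged from a mean of 10.22 in B6 F to 10.58 in KK M. Chil6 and Olfr1474 had means of at most 4.14 in any group.

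Of 22 listed regulators of liver sex bias, 19 were measured. Bcl6 encodes a repressor known to be higher in male liver and to compete with STAT5 for its sites. It read 6.76, 6.30 and 6.24 in B6 F, 9.03, 8.95 and 9.39 in B6 M, 7.27, 7.32 and 7.56 in KK F, and 7.27, 7.85 and 6.92 in KK M. The sexes lay far apart in B6 and overlapped in KK. Bcl6 was higher in B6 males than B6 females by 2.69 (SE 0.21, adjusted p = 3.23e-05), where 1.03% of all probe sets were called between the sexes, and the difference in KK was not called. It fell by 1.78 in KK males against B6 males (SE 0.21, adjusted p = 3.39e-04), and its interaction of -2.73 (SE 0.30, adjusted p = 0.00264) was called. In females it rose by 0.95 (SE 0.21, adjusted p = 0.0191), a call that was lost without B6 F 2, B6 F 3 or KK F 3, at adjusted p-values of 0.0708 to 0.0769.

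Cish encodes a feedback inhibitor of cytokine receptors that STAT5 induces. It read 7.25, 7.14 and 7.86 in B6 F, 6.82, 6.56 and 6.51 in B6 M, 6.70, 6.90 and 6.89 in KK F, and 7.49, 7.90 and 8.12 in KK M. In B6 the males lay below the females without overlap, a difference of -0.79 that was not called (SE 0.19, adjusted p = 0.0844), and in KK the males lay above the females. Cish rose in KK males by 1.20 (SE 0.19, adjusted p = 0.00236), and the interaction was 1.79 (SE 0.26, adjusted p = 0.0184). The interaction had an adjusted p of 0.0576 to 0.0714 without B6 M 2, B6 M 3, KK F 1 or KK M 2. Within KK the male minus female difference of Cish was 1.0 (SE 0.19, adjusted p = 0.0177), against 2.17% of probe sets called, and its adjusted p was 0.0886 without KK F 1 and 0.0738 without KK M 2.

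Other regulators moved with strain in 1 or both sexes. Stat5b, the transducer of the growth hormone signal, fell by 0.31 in KK over both sexes (SE 0.06, adjusted p = 0.00298) and fell by 0.41 in males (SE 0.08, adjusted p = 0.00935). Trim24, a co-regulator of nuclear receptors, fell by 0.90 in KK females (SE 0.18, adjusted p = 0.0091), from 8.56, 8.51 and 8.20 in B6 F to 7.81, 7.46 and 7.30 in KK F. Onecut1, which encodes HNF6, rose over both sexes by 1.05 (SE 0.22, adjusted p = 0.00756). In males it rose by 1.58 (SE 0.31, adjusted p = 0.0108), but had an adjusted p of 0.0527 without B6 M 3. Esr1, the oestrogen receptor gene, differed by -1.33 in males against females of each strain (SE 0.12, adjusted p = 7.50e-05 in B6 and 1.11e-04 in KK).

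Over the whole list, 1 regulator was called higher and 3 lower in KK over both sexes, where 5.42% and 6.31% of all probe sets were, with a median of -0.02. The lower count was 1 without B6 F 2, B6 M 1, B6 M 3, KK F 3 or KK M 1, and the higher count was 2 without B6 F 3. In females 1 was called higher and 1 lower, against 3.18% and 3.31% of all probe sets. In males 2 were called higher and 2 lower, against 2.08% and 3.06%. The higher count was 0 in females without B6 F 2, B6 F 3 or KK F 3, and 1 in males without B6 M 3. The lower count in females was 2 without B6 F 3, KK F 1 or KK M 1. Between the sexes 1 was called higher and 3 lower in B6 males, where 1.03% of all probe sets were called. In KK males 1 was called higher and 2 lower, against 2.17%. The calls in B6 included Trim24 and Tox, and those in KK Stat5b. With 1 array left out, the lower count was 2 to 4 in B6 and 2 to 3 in KK, and the higher count in KK 0 to 2.

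**Figure D4:**
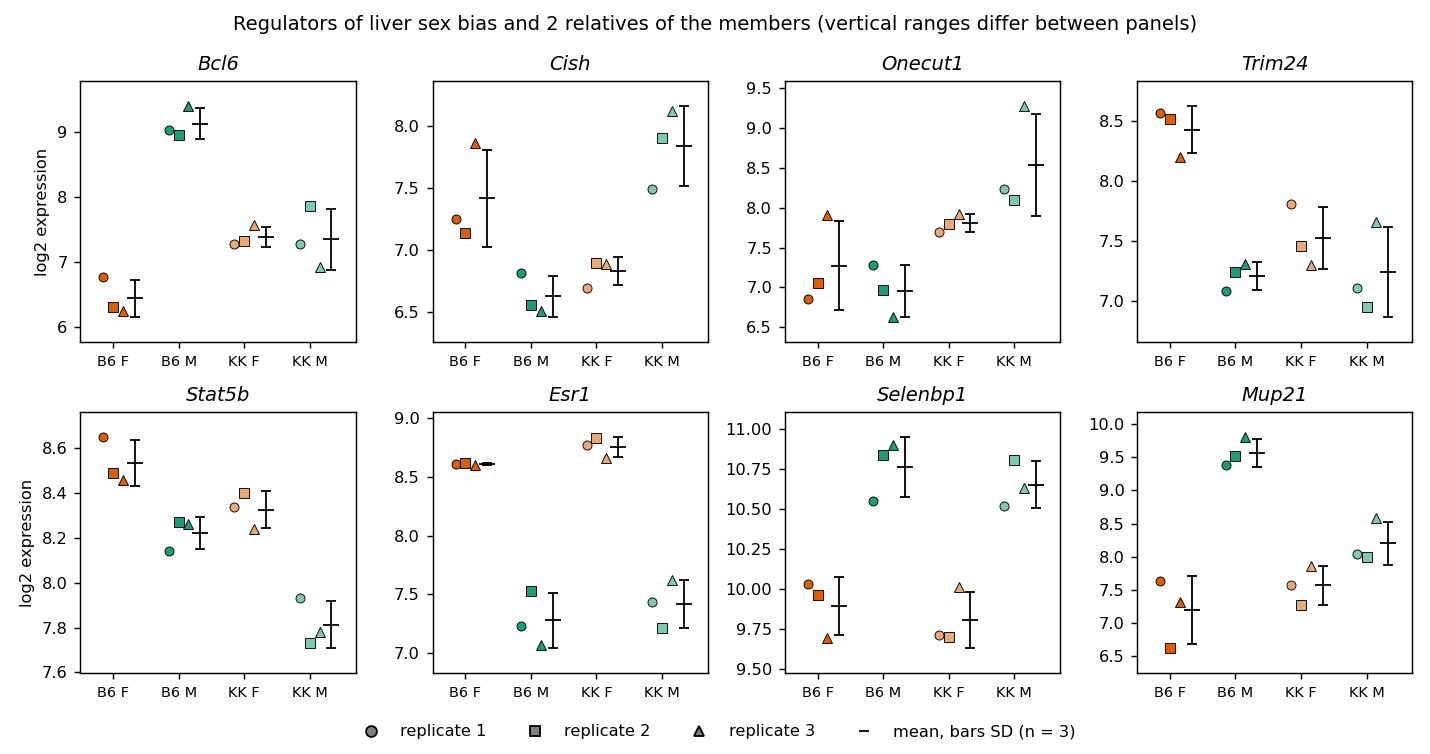
Log2 expression (vertical axes, with a range of its own for each gene) of 6 regulators of liver sex bias and of Selenbp1 and Mup21 in the 12 mice by group (horizontal axes); symbols mark the replicate number, and the bars are mean and SD of 3 mice. Bcl6 separates the B6 sexes, at 6.24 to 6.76 against 8.95 to 9.39, but not the KK sexes, while Esr1 separates the sexes in both strains.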

How the data were processed

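RNA from the liver of 12 mice was hybridised to 12 arrays, 1 for each mouse. The authors deposited log2 expression values for 21212 probe sets, and per the submitters' processing notes the RMA method and the affy package were used, with no version given in the sources used here. Gene symbols came from the platform annotation: 18786 probe sets had 1 symbol, 6 had several and 2420 had none. The deposited log2 values were used unchanged. limma 3.58.1 in R 4.3.3 fitted 4 group means (lmFit, eBayes), with Benjamini-Hochberg adjustment over all probe sets and a call at an adjusted p under 0.05. The fit was tested on simulated data. Members and gene lists were chosen with earlier results of these data known. Named genes are the 10 members, the 3 most correlated genes outside the set for each (predicted genes passed over), and from each list at most 4 called genes for each comparison, with others named beside them where a count or a sex difference turned on them.

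The alternatives were quantile or loess normalization, a filter on low values, 1 probe set for each gene, an intensity trend with robust prior, array weights, the array's interquartile range as a covariate, a replicate block, fits on 1 sex alone, and each array left out. The replicate numbers do not pair the mice by the labels, and of 18 pairs of same-numbered arrays 10 correlated above 0.1 (r from -0.356 to 0.477). The number of arrays limits the precision, and probes were designed on the reference genome, so the part played by KK sequence differences was not tested.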

Additional observations from a re-analysis of the deposited data

Results flagged for a closer look

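For 5 genes the strain difference in males differed from that in females by limma's interaction test. Among the 10 genes this was 3.4 log2 for Moxd1 (adjusted p = 0.00486), 2.51 for Atp6v0d2 (adjusted p = 2.43e-06) and -1.86 for Mup20 (adjusted p = 0.0164). The interaction is a difference of the sex differences on which these 3 genes were chosen, so their p-values are not independent of the choice. Moxd1 was highest in KK males, Atp6v0d2 was highest in B6 females, and Mup20 was lowest in B6 females. Among the regulators it was -2.73 for Bcl6 (adjusted p = 0.00264, and 4.16e-04 to 0.0122 over the alternatives) and 1.79 for Cish (adjusted p = 0.0184, and 0.00804 to 0.0714 over the alternatives). The sex difference of Bcl6, 2.69 in B6, was -0.04 in KK (SE 0.21, adjusted p = 0.942).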

How the results depend on the processing

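Of the 14 called results of the 10 genes, 0 changed direction under the alternatives tried. A filter to probe sets above the median mean removes Moxd1 and Atp6v0d2, so it leaves 0 genes called lower over both sexes, 0 lower in females, 0 higher and 0 lower in males, and 0 with a higher interaction. With the interquartile range as covariate, 2329 probe sets were called in females and 1673 in males, against 1378 and 1092, and with array weights 2423 in males and 77 in the interaction, against 30. The interaction called 2 genes lower with an intensity trend and robust prior and 3 with array weights, against 1. The cause of these shifts was not tested.

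Without 1 array the calls numbered 2004 to 2371 over both sexes, 905 (without KK F 1) to 1412 in females, 662 (without KK M 1; 711 without B6 M 3) to 1163 in males, and 19 (without B6 M 3 or KK M 2) to 35 in the interaction. Genes of the set called lower in the interaction numbered 0 to 2, with 2 without B6 M 1, and those called higher in females 3 to 4. The replicate block, which is not a pairing by the labels, gave 3113 calls over both sexes, 1765 in females, 1477 in males and 41 in the interaction, and 8 of 12 arrays were closest to their own number. Under it Susd4 was called lower in males (-0.63, adjusted p = 0.0498), making 2, and it changed no other call of the 10 genes.

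Values of the 10 genes that changed sign were all uncalled. With 1 array left out, Cyp2u1 ranged from -0.02 to 0.10 over both sexes, -0.09 to 0.11 in females, -0.04 to 0.18 in males and -0.06 to 0.16 in the interaction, and it was -0.002 in females with the covariate and -0.04 in the interaction with array weights. A1bg ranged from -0.87 to 0.22 over both sexes, -1.58 to 0.60 in females and -0.76 to 1.42 in the interaction. Mup3 ranged from -0.02 to 0.14 over both sexes, Moxd1 from -0.12 to 0.05 and Susd4 from -0.10 to 0.38 in females, and Selenbp2 from -0.24 to 0.15 in males. With loess Selenbp2 in males was 0.03 and Cyp2d9 0.0007, and Cyp2d9 was 0.06 with the covariate.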

Other observations

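The nearest measured genes on either side of the 10 genes in the RefSeq gene order, 18 distinct genes, were called between the strains in 6 cases over both sexes, where 11.7% of all probe sets were called, in 4 in females (6.5% of all) and in 4 in males (5.15% of all). No test was made of these counts. Among the neighbours are Mup5, Mup21, Cyp2d10 and Cyp2d12, relatives of the chosen genes whose probe sets may read more than 1 gene. Of these, Cyp2d12 was called over both sexes and in females, and Mup21 in males. Between the sexes 1 was called in B6, Mup21 (1.03% of all), and 1 in KK, Ttpa (2.17% of all). In the interaction limma called 0 (0.141% of all), and 3 had an unadjusted p under 0.05.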
